A study of Mus musculus with 9 samples.

Results

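A set of 7 genes of transcription factors that mark the mesenchyme of the meninges were followed through the prefrontal cortex (PFC) of 3 groups of mice: Osr1, Foxc1, Foxc2, Foxd1, Zic1, Zic4 and Tbx18. They were taken as a named list, were matched by identifier, and were 7 of 56246 genes counted and 7 of the 17948 that passed the filter on low counts. The genes were chosen by their CPM and fitted changes in these same libraries, so that the levels and fitted changes of its 7 genes are given as a description and are not independent evidence of a direction. The first group was Rag1-/- mice injected intravenously with extracellular vesicles from the blood of wild-type mice (Rag1-/- + WT EVs, replicates 2, 3 and 5). The second was Rag1-/- mice given vehicle (replicates 1, 2 and 3), and the third was wild-type mice (WT, replicates 1, 3 and 6). All were adult males on a C57BL/6 background. The treatment label of the WT libraries reads none, but their titles carry the mark for medium that the vehicle titles also carry, and the study's supplement describes these WT mice as given medium too. Rag1 encodes a subunit of the recombinase that assembles antigen receptor genes, and Rag1-/- mice lack mature T and B cells throughout the body, in both Rag1-/- groups alike. Extracellular vesicles (EVs) are membrane-enclosed particles that cells release into blood. The labels do not name the animals, but the study describes its replicates as separate mice.

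The meninges are the membranes around the brain, and their fibroblasts secrete collagens, retinoic acid and growth factors that act on the cortex beneath them. In mice, these fibroblasts arise from neural crest and mesoderm under the control of forkhead and zinc finger factors. Foxc1 is required for the meninges to form over the mouse forebrain, Zic1 belongs to a zinc finger family active in meninges and in cerebellar and other neurons, and Tbx18 also marks pericytes and smooth muscle cells. A dissected piece of cortex can carry a variable amount of the overlying pia. In bulk tissue, a change in the number of cells of a type and a change in RNA per cell cannot be told apart.

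Gene reads numbered 32 to 41.2 M per library. Reads outside annotated exons were taken as a share of gene reads, reads outside exons and reads ambiguous between genes. This share was 6.54 to 11.2% in 8 libraries and 30.1% in WT replicate 6, which also had the most genes with at least 10 reads. The share was 8.24, 7.73 and 11.2% in EV libraries and 6.78, 6.90 and 6.54% in vehicle libraries, so that every EV library lay above every vehicle library, and it was 10.9, 8.11 and 30.1% in WT libraries. Levels are counts per M reads (CPM) after TMM scaling, a correction for library composition. The 7 genes were counted with 22 to 663 reads per library. At the lowest of these, 22 reads of Osr1 in WT replicate 1, the exact 95% Poisson interval was 13.8 to 33.3 reads, which covers counting error only. Rag1 itself stood at 6.80, 7.32 and 6.26 CPM in EV libraries, at 7.82, 7.04 and 6.85 CPM in vehicle libraries and at 1.09, 0.842 and 0.232 CPM in WT libraries. It was thus higher in the libraries labelled Rag1-/-, and gene-level counts cannot tell a disrupted transcript from an intact one. Directions below are between the libraries as labelled. Marker genes of cortical excitatory neurons summed to 6906 to 8777 CPM over the 9 libraries.

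All coordinates are on GRCm38, and the members lie on 4 chromosomes. Tbx18 (chromosome 9, 87702800 to 87731260, minus strand), Zic1 (chromosome 9, 91358058 to 91365810, minus strand) and Zic4 (chromosome 9, 91362413 to 91389348, plus strand) share a stretch of 3.69 Mb. Foxc1 (chromosome 13, 31806633 to 31812476, plus strand) and Foxd1 (chromosome 13, 98354242 to 98359305, plus strand) lie within 66.6 Mb of each other. Foxc2 occupies chromosome 8, 121116171 to 121118895, and Osr1 chromosome 12, 9570116 to 9581500, both on the plus strand. Foxc1, Foxc2 and Foxd1 each have 1 exon. Reads were counted without regard to strand, and 20.6% of the exonic bases of Tbx18 are shared with D030062O11Rik on the other strand. D030062O11Rik had at most 10 reads in any library. Reads on shared bases are ambiguous between the genes, so this low count does not show how many fell there. Zic1 and Zic4 share 60 exonic bases, 1.05% of Zic1. Of Zic4, 5.11% lies under Zic1 or Gm37477, the second of which had at most 6 reads per library.

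RefSeq promoter windows on GRCm38.p6 were found for 5 of the 7 genes, and the 250 bases before the start site were read for motifs on both strands. Zic1 and Zic4 are shown because they are neighbours, with the RefSeq start sites used here 3.20 kb apart. Foxc1 and Tbx18 are shown because their levels followed each other most closely across libraries. The annotated Zic4 gene begins before its start site used here, at 91362413 and inside Zic1. The Zic4 window thus need not be its only promoter. Capitals mark GC boxes (GGGCGG) and CCAAT boxes (CCAAT) on either strand. The windows are chr9:91365769-91366018 (minus strand) for Zic1, chr9:91368722-91368971 (plus) for Zic4, chr13:31806396-31806645 (plus) for Foxc1 and chr9:87731261-87731510 (minus) for Tbx18.
Zic1: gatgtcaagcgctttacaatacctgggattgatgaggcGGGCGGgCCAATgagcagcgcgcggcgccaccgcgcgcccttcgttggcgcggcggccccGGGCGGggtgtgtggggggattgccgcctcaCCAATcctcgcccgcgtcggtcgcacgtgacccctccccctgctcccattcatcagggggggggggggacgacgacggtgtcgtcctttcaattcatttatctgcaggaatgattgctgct
Zic4: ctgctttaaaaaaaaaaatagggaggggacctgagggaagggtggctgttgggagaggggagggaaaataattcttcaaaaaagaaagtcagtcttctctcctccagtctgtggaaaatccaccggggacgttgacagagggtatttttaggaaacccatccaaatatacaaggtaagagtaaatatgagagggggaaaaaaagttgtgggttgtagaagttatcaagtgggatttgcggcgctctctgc
Foxc1: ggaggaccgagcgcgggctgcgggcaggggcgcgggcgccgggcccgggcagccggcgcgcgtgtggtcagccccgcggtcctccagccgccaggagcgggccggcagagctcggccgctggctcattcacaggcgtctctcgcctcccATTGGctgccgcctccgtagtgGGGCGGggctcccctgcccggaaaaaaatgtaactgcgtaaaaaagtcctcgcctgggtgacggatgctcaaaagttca
Tbx18: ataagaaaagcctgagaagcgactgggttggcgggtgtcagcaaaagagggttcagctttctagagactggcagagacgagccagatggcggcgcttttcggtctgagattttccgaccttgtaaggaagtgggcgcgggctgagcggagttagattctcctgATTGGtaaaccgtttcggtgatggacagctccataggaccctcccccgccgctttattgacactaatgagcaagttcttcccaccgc

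The windows of Zic1 and Foxc1 were rich in G and C, at 66.0% and 70.8%, with 27 and 29 CpG dinucleotides. That of Zic4 held 44.4% G and C and 4 CpG dinucleotides, and the medians over all 32851 windows were 52.4% and 6. Zic1 had 2 GC boxes and 2 CCAAT boxes, Foxc1 had 1 of each, Foxd1 had 1 of each, Tbx18 had 1 CCAAT box and Zic4 had neither. Of all windows, 32.7% held a GC box and 33.8% a CCAAT box. The letters TAAACA (the core of the forkhead motif GTAAACA, in 12.03% of windows), TATAAA (12.4%), CCTGCTG (8.44%) and GGTGTGA (3.33%) were in none of the 5 windows.

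By CPM per kb of exon, averaged over the 9 libraries, the order of levels was Zic1 (2.21), Foxc1 (1.38), Osr1 (0.806), Tbx18 (0.557), Foxc2 (0.540), Foxd1 (0.346) and Zic4 (0.215). Zic1 exceeded Foxc1, Foxc1 exceeded Osr1, Foxc2 exceeded Foxd1 and Foxd1 exceeded Zic4 in 9 of 9 libraries. Osr1 exceeded Tbx18 in 7 of 9, and Tbx18 exceeded Foxc2 in 5 of 9. The lengths include the 20.6% of Tbx18 exonic bases shared with another gene, where reads counted without strand are ambiguous. The Tbx18 values may thus be too low, and its place in this order is not settled. Over all libraries, the ranges of every neighbouring pair overlapped.

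Of the 7 genes, 7 had a higher fitted level in EV than in vehicle libraries, 7 in EV than in WT libraries, and 6 in vehicle than in WT libraries. The groups are taken gene by gene below, zinc finger factors first. Changes are log2 fold changes from edgeR's quasi-likelihood test on all 9 libraries, with the standard error (SE) and the Benjamini-Hochberg adjusted p over all tested genes.

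**Figure D1:**
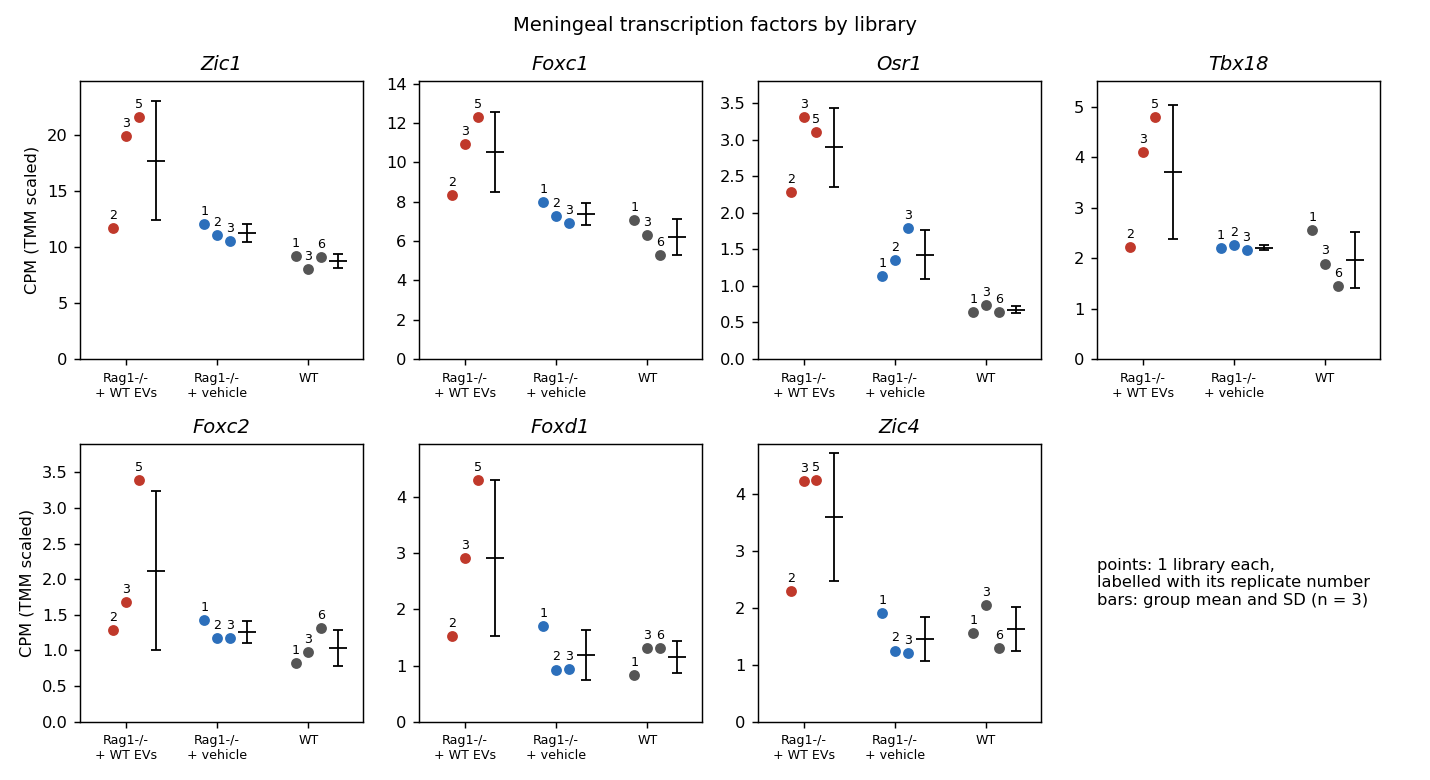
Level of each of the 7 genes in CPM (linear axes from 0) in the 9 libraries, with Rag1-/- + WT EVs, Rag1-/- + vehicle and WT side by side; points are libraries labelled by replicate number, and bars give the group mean and SD (n = 3). EV replicate 2 is the lowest EV library for every gene, and for Osr1 the groups form 3 separate steps.

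Osr1, an odd-skipped zinc finger factor of embryonic mesenchyme and the urogenital system, was the member whose 3 groups stood fully apart. It was counted at 2.29, 3.31 and 3.10 CPM in EV libraries, at 1.13, 1.36 and 1.79 CPM in vehicle libraries and at 0.648, 0.737 and 0.643 CPM in WT libraries. Every EV library lay above every vehicle library, and every vehicle library above every WT library. Against vehicle, the EV libraries differed by a log2 fold change of 1.02 (SE 0.271, adjusted p = 0.0608). For EV against WT the log2 fold change was 2.09 (SE 0.285, adjusted p = 0.0353), a 4.27-fold higher level. Vehicle libraries exceeded WT by 1.07 (SE 0.284, adjusted p = 0.0332). Leaving out EV replicate 3, any vehicle library or WT replicate 1 placed the vehicle against WT value above the threshold, at adjusted p of 0.0520 to 0.115, and so did edgeR on the 6 libraries compared (0.0813), the replicate block (0.121) and the outside-exon covariate (0.226). For EV against WT, leaving out EV replicate 3 or 5, any vehicle library or WT replicate 1 did so, at 0.0719 to 0.254, as did edgeR on the 6 libraries compared (0.241). The lowest log2 fold change of EV against WT over those and all other settings was 2.004. Without WT replicate 6, the adjusted p was 0.0127 for EV against vehicle, 0.0124 for EV against WT and 0.0489 for vehicle against WT.

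Zic1, a zinc finger factor that in mice is also active in cerebellar granule cells, had the highest level of the set. EV libraries held 11.7, 19.9 and 21.6 CPM, vehicle libraries 12.1, 11.1 and 10.6 CPM, and WT libraries 9.24, 8.08 and 9.08 CPM. The EV and vehicle groups overlapped through EV replicate 2, which lay below vehicle replicate 1, while both Rag1-/- groups lay wholly above WT. The log2 fold change was 0.66 (SE 0.189, adjusted p = 0.0753) for EV against vehicle, 1.01 (SE 0.192, adjusted p = 0.0931) for EV against WT, and 0.35 (SE 0.192, adjusted p = 0.205) for vehicle against WT.

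Zic4, the neighbour of Zic1 on the opposite strand, was counted at 2.29, 4.22 and 4.24 CPM in EV libraries, at 1.90, 1.25 and 1.20 CPM in vehicle libraries and at 1.56, 2.05 and 1.29 CPM in WT libraries. All EV libraries were above all others, and the vehicle and WT groups overlapped. It passed the threshold for EV against vehicle, with a log2 fold change of 1.30 (SE 0.311, adjusted p = 0.0478). The adjusted p lay at 0.0789 to 0.239 when any EV library, any vehicle library or WT replicate 1 was left out, at 0.0521 with DESeq2's size factors, and at 0.00783 without WT replicate 6. EV against WT gave 1.13 (SE 0.310, adjusted p = 0.195). Vehicle against WT gave -0.17 (SE 0.314, adjusted p = 0.722), and the sign of this value turned (0.07) without WT replicate 3.

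The ratio of Zic1 to Zic4 CPM was 5.12, 4.72 and 5.10 in EV replicates 2, 3 and 5. In vehicle replicates 1, 2 and 3 it was 6.38, 8.87 and 8.80. The lower EV values restate the larger fitted change of Zic4 (1.30) than of Zic1 (0.66) for EV against vehicle and are no separate result. The vehicle ratios rest on 47 to 69 reads of Zic4. In WT libraries the ratio was 5.92, 3.94 and 7.06, a range that holds all EV values. EV replicate 2, the lowest EV library for both genes, had a ratio close to that of EV replicate 5.

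**Figure D2:**
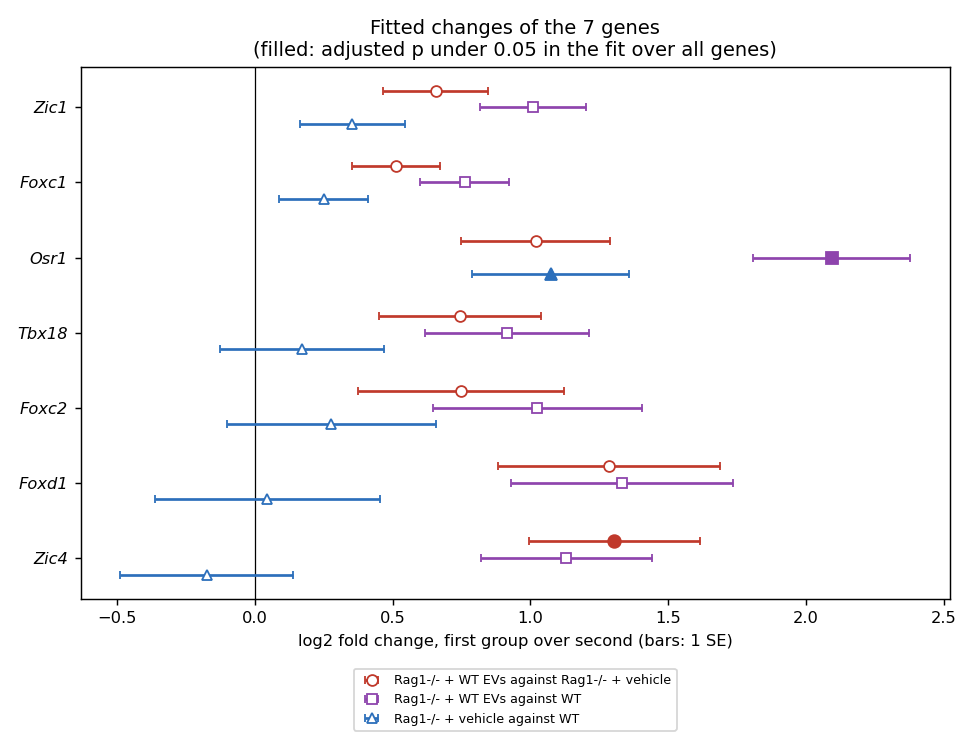
Fitted log2 fold change of each gene (x axis, first group over second, with 1 SE) in the 3 comparisons, in order of mean CPM per kb from top to bottom; filled symbols passed an adjusted p of 0.05 in edgeR over 17948 genes. Of the 21 values, 20 lie to the right of 0, and 3 are filled, Osr1 in EV against WT (2.09) and in vehicle against WT (1.07) and Zic4 in EV against vehicle (1.30).

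Among the forkhead factors, Foxc1 was the most abundant. It stood at 8.33, 10.96 and 12.3 CPM in EV libraries, at 7.98, 7.26 and 6.90 CPM in vehicle libraries and at 7.06, 6.29 and 5.27 CPM in WT libraries. Every EV library lay above every vehicle and WT library, although EV replicate 2 exceeded vehicle replicate 1 by little, and the vehicle and WT groups overlapped. Its log2 fold changes were 0.51 (SE 0.159, adjusted p = 0.0911) for EV against vehicle, 0.76 (SE 0.161, adjusted p = 0.115) for EV against WT and 0.25 (SE 0.161, adjusted p = 0.286) for vehicle against WT.

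Foxc2, a forkhead factor of lymphatic vessels and mesenchyme, was counted at 1.29, 1.68 and 3.39 CPM in EV libraries, at 1.43, 1.17 and 1.18 CPM in vehicle libraries and at 0.824, 0.973 and 1.31 CPM in WT libraries. EV replicates 3 and 5 lay above all other libraries and replicate 2 did not, and the groups overlapped in all 3 comparisons. The log2 fold change of EV against vehicle was 0.75 (SE 0.374, adjusted p = 0.258) and became 0.21 without EV replicate 5. That of EV against WT was 1.03 (SE 0.378, adjusted p = 0.247) and became 0.52 without EV replicate 5. Vehicle against WT gave 0.28 (SE 0.379, adjusted p = 0.631). The ratio of Foxc1 to Foxc2 was 3.63 to 6.51 in EV, 5.58 to 6.20 in vehicle and 4.02 to 8.57 in WT libraries, ranges that overlap.

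Foxd1, a forkhead factor of kidney stroma and of the developing eye in mice, spread widely within the EV group. It stood at 1.52, 2.91 and 4.31 CPM in EV libraries, at 1.71, 0.930 and 0.942 CPM in vehicle libraries and at 0.824, 1.32 and 1.31 CPM in WT libraries. EV replicate 2 lay below vehicle replicate 1, and all EV libraries lay above WT. The log2 fold changes were 1.29 (SE 0.403, adjusted p = 0.0925) for EV against vehicle and 1.33 (SE 0.404, adjusted p = 0.214) for EV against WT. For vehicle against WT the value was 0.05 (SE 0.408, adjusted p = 0.949), with a sign that turned under 4 of 17 settings.

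Tbx18, a T-box factor of pericytes, smooth muscle and mesenchyme, was nearly constant in vehicle libraries. It was counted at 2.23, 4.10 and 4.79 CPM in EV libraries, at 2.20, 2.26 and 2.17 CPM in vehicle libraries and at 2.56, 1.89 and 1.44 CPM in WT libraries. EV replicate 2 lay among the vehicle libraries and below WT replicate 1, whereas EV replicates 3 and 5 lay above all 6 libraries of the other groups. The log2 fold changes were 0.74 (SE 0.295, adjusted p = 0.163) for EV against vehicle, 0.92 (SE 0.298, adjusted p = 0.225) for EV against WT and 0.17 (SE 0.299, adjusted p = 0.712) for vehicle against WT. The last of these had the opposite sign without WT replicate 6 (-0.01) and with the replicate block (-0.02).

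Counted together, 1 of 7 genes passed the threshold for EV against vehicle (Zic4), where 3.42% of all tested genes were called and 2.17% were called higher. For EV against WT 1 of 7 passed (Osr1), where 0.0446% of tested genes were called and 0.039% were called higher. For vehicle against WT 1 of 7 passed (Osr1), beside 16.0% of tested genes called and 6.28% called higher. All EV libraries lay above all vehicle libraries for 3 of 7 genes (20.1% of tested genes), and above all WT libraries for 5 of 7 (8.72%). All vehicle libraries lay above all WT libraries for 2 of 7, Osr1 and Zic1 (18.3%). The median log2 fold change of the 7 genes was 0.75 for EV against vehicle, 1.03 for EV against WT and 0.25 for vehicle against WT, beside 0.04, -0.01 and -0.03 over all tested genes. The median for EV against vehicle was 0.49 without EV replicate 5, and that for vehicle against WT was 0.14 without WT replicate 6 and 0.38 without WT replicate 1. These comparisons share libraries in pairs, and the genes were listed with such values known, so nothing is read from the counts.

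The share of reads outside exons, higher in all EV than in all vehicle libraries, was highest among these 6 in EV replicate 5, which was also the highest library for every member but Osr1. With that share as a covariate, the median log2 fold change of the 7 genes for EV against vehicle was 0.82, and Foxc1, Osr1 and Zic4 passed. The calls moved with the settings while the directions for EV libraries did not. All settings refit the same libraries, and the genes were chosen by changes in them, so kept signs are no independent evidence of a direction. Over 17 other settings for EV against vehicle and 16 for EV against WT, the sign of every gene was kept in 119 of 119 and 112 of 112 values. For vehicle against WT it was kept in 112 of 119, the others belonging to Foxd1, Tbx18 and Zic4. Without WT replicate 6, 5 of 7 genes passed for EV against vehicle (Foxc1, Foxd1, Osr1, Zic1 and Zic4), and 2985 rather than 613 of all tested genes did. Without EV replicate 2, 0 of 7 and 0 of all tested genes did in edgeR (7 of 7 had an adjusted p of 0.0698 to 0.201), although the changes of all 7 were larger. Their log2 fold changes for EV against vehicle were then 0.64 for Foxc1, 0.87 for Zic1, 0.99 for Foxc2, 0.99 for Tbx18, 1.15 for Osr1, 1.53 for Zic4 and 1.58 for Foxd1.

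**Figure D3:**
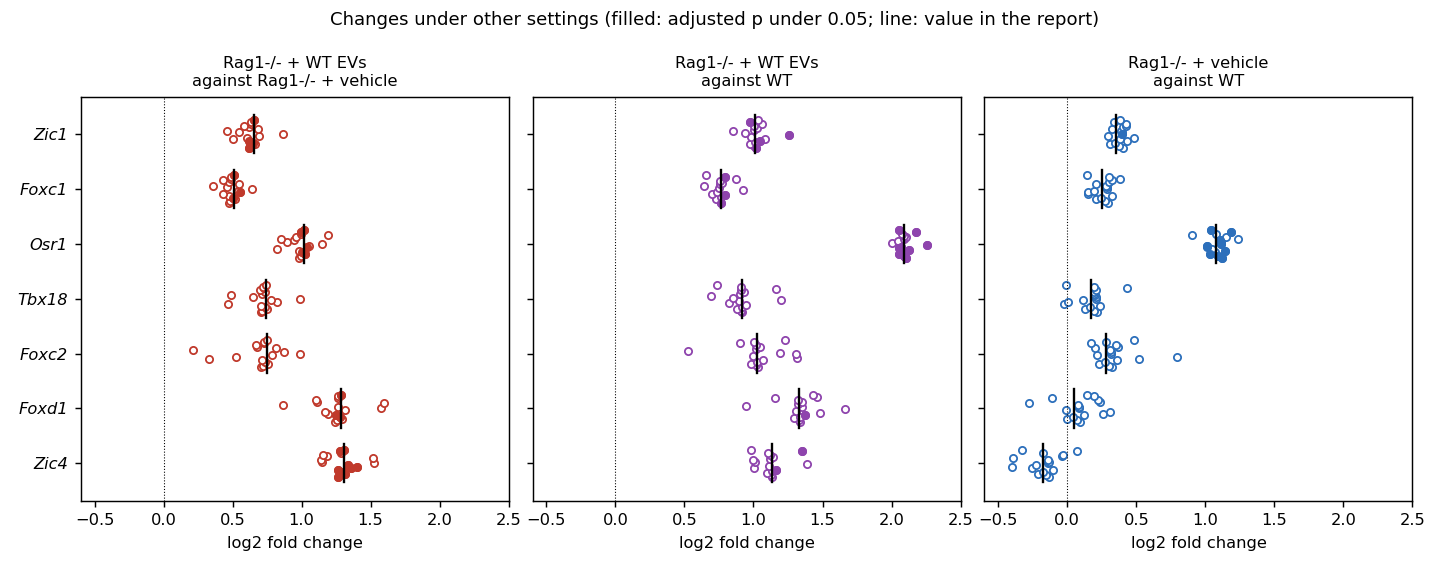
Log2 fold change of each gene (x axis) under each other setting, 1 point per setting, with Rag1-/- + WT EVs against Rag1-/- + vehicle, Rag1-/- + WT EVs against WT and Rag1-/- + vehicle against WT from left to right; the line marks the value given in the text, and filled points had an adjusted p under 0.05. In both EV comparisons all points lie to the right of 0, with Foxc2 the widest spread toward it, and in vehicle against WT those of Osr1 lie between 0.90 and 1.24.

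Across the 9 libraries, which hold the group differences and share the depth and composition of each library, the genes followed each other. Pearson's r of log2 CPM (pseudocount 0.5) was positive for all 21 pairs and ranged over 0.71 for Osr1 and Foxc2 to 0.96 for Foxc1 and Tbx18. It was 0.85 for the neighbours Zic1 and Zic4 and 0.92 for Foxc2 and Foxd1. Osr1, whose r to the other members was among the lowest, took 7.72, 7.02 and 5.76% of the summed CPM of the 7 genes in EV libraries, against 2.85 to 3.45% in WT libraries, and 3.97 to 7.23% in vehicle libraries.

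Of 12904 protein-coding genes averaging at least 1 CPM, those most like the mean of the 7 (each scaled to its own spread, n = 9 libraries) were Ptgfr, a prostaglandin F receptor (r = 0.98), Alx4, a homeobox factor of skull mesenchyme (0.98), and Thbd, thrombomodulin (0.97). Next came the chloride channel gene Clcn2 (0.97), Olfml2a (0.97), the Wnt ligand gene Wnt6 (0.96), the fibrillar collagen gene Col3a1 (0.96) and Zic2 (0.96). Ptgfr averaged 3.80 CPM in EV, 1.72 in vehicle and 1.31 in WT libraries. Col3a1 averaged 7.30 CPM in EV, 3.57 in vehicle and 2.27 in WT libraries. By single member, Foxc1 was most like Bmp7 (0.99), a growth factor gene of the meninges, Zic2 (0.99) and the transporter gene Slc22a8 (0.98). Zic1 was most like Ptgfr (0.99), Alx4 (0.97) and Aox3 (0.97), and Tbx18 was most like the protease gene Ctsc (0.98), Slc22a8 (0.98) and Zic2 (0.97). Osr1 was most like Fstl1 (0.96), Wnt6 (0.96) and Tmem161a (0.95). Foxc2 was most like Bmp4 (0.95), Abca4 (0.95) and Xdh (0.94), and Foxd1 was most like Rab3il1 (0.96), Xdh (0.96) and Bicc1 (0.94). Zic4 was most like Mrc1 (0.97), F13a1 (0.97) and Tfpi (0.97), the first a mannose receptor and the second a coagulation factor gene that macrophages at the borders of the brain express. Mrc1 averaged 11.3 CPM in EV, 5.35 in vehicle and 5.46 in WT libraries. F13a1 averaged 4.36 CPM in EV, 2.17 in vehicle and 2.22 in WT libraries. All these genes were ranked over the same 9 libraries by whose changes the members were chosen. A high r can thus come from the group pattern alone and is no separate evidence of shared cells or regulation.

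The wider family was described by a list of 50 other transcription factors of meningeal and other mesenchyme, of which 39 were tested and Tcf21 had 0 reads. For EV against vehicle 1 of 39 rose and 0 fell in edgeR, 6 higher and 1 lower had an unadjusted p under 0.05, and DESeq2 called 6 of the 18 to which it gave an adjusted p. Of all 17948 tested genes, 2.17% were called higher in edgeR and 4143 had an unadjusted p under 0.05. DESeq2 called 1991 of 12654 genes with an adjusted p. Nothing is therefore read from the counts of this list. The median log2 fold change of the 39 factors was 0.32, with 32 of 39 positive. Prrx1, a homeobox factor of limb and craniofacial mesenchyme, was the one that passed. It had 9.50, 13.96 and 14.8 CPM in EV libraries and 8.04, 8.80 and 6.83 CPM in vehicle libraries, with no overlap, and 11.1, 10.2 and 11.9 CPM in WT libraries. Its log2 fold change for EV against vehicle was 0.69 (SE 0.167, adjusted p = 0.0483). The next by p were Alx4 at 1.30 (adjusted p = 0.0540), Zic5 at 0.87 (0.0541) and Bnc2, a zinc finger factor of fibroblasts, at 1.06 (0.0894). Alx4 stood at 2.32, 4.13 and 6.49 CPM in EV libraries, against 1.93, 1.49 and 1.81 CPM in vehicle libraries. Without WT replicate 6, 7 of these factors passed, and 0 did in edgeR without any 1 of the EV or vehicle libraries or without WT replicate 1.

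Against WT, 0 of the 39 factors passed for EV libraries in edgeR, 10 higher and 2 lower had an unadjusted p under 0.05, and DESeq2 called 2, Alx4 and Zic2. Of all 17948 tested genes, 8 passed in edgeR and 2944 had an unadjusted p under 0.05. The smallest p in the list belonged to Alx4, at a log2 fold change of 1.67 (adjusted p = 0.102), and Zic2 was at 0.79 (0.171) and Nr2f2 at 0.60 (0.220). The median over the list was 0.25, with 28 of 39 positive. For vehicle against WT, 0 of 39 passed in edgeR, 0 higher and 4 lower had an unadjusted p under 0.05, and DESeq2 called 1, Runx1. Of all 17948 tested genes, 2871 passed in edgeR and 6461 had an unadjusted p under 0.05. Runx1, a factor of blood cell and mesenchymal development, was at -0.88 (adjusted p = 0.0567). It was followed by Prrx1 at -0.49 (0.0634), Ebf1 at -0.60 (0.0751) and Zic5 at -0.51 (0.124). The median was 0.08, with 22 of 39 positive.

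Markers of meningeal fibroblasts, like the 7 genes, had their highest sums in EV libraries. The summed CPM of 25 such markers, all tested, was 944, 1325 and 1585 in EV libraries, 792, 650 and 610 in vehicle libraries and 498, 625 and 341 in WT libraries, and every EV library was above every other library. EV replicate 2 was the lowest EV library here too. For EV against vehicle 25 of 25 were positive, 3 passed (Slc6a13, Crabp2 and Ptgds), and the median log2 fold change was 0.79. Between EV and WT libraries 25 of 25 were positive, 2 passed (Slc6a13 and Islr), and the median was 1.38. For vehicle against WT 22 of 25 were positive, 3 passed (Islr, Fmod and Igf2), and the median was 0.41. Of all tested genes, 3.42%, 0.0446% and 16.0% passed in these comparisons. The marker sums of vehicle and WT libraries overlapped, unlike those of the 7 genes. None of the 25 was at 0. Ptgds, a prostaglandin D synthase of the leptomeninges and the most abundant marker, had 621, 904 and 1093 CPM in EV libraries, against 495, 405 and 394 CPM in vehicle libraries, and 299.7, 385 and 199 CPM in WT libraries.

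Among the other abundant markers, Col1a2, a chain of type I collagen, had a log2 fold change for EV against vehicle of 0.79 (adjusted p = 0.0859). Pdgfra, which oligodendrocyte precursors also express, stood at 0.17 (adjusted p = 0.583) and Igfbp2 at 0.65 (adjusted p = 0.0692). The summed CPM of the 7 transcription factors was 29.6, 47.1 and 53.8 in EV libraries, 28.5, 25.3 and 24.8 in vehicle libraries and 22.7, 21.3 and 20.4 in WT libraries. As a share of the fibroblast marker sum this was 3.14, 3.56 and 3.39% in EV libraries, 3.59, 3.89 and 4.06% in vehicle libraries and 4.56, 3.42 and 5.96% in WT libraries. With Ptgds left out of the marker sum, the shares were 9.20 to 11.2% in EV, 9.59 to 11.4% in vehicle and 8.91 to 14.3% in WT libraries, and the groups overlapped. Whether the amount of meninges in the dissected tissue accounts for the levels of the 7 genes was not tested.

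**Figure D4:**
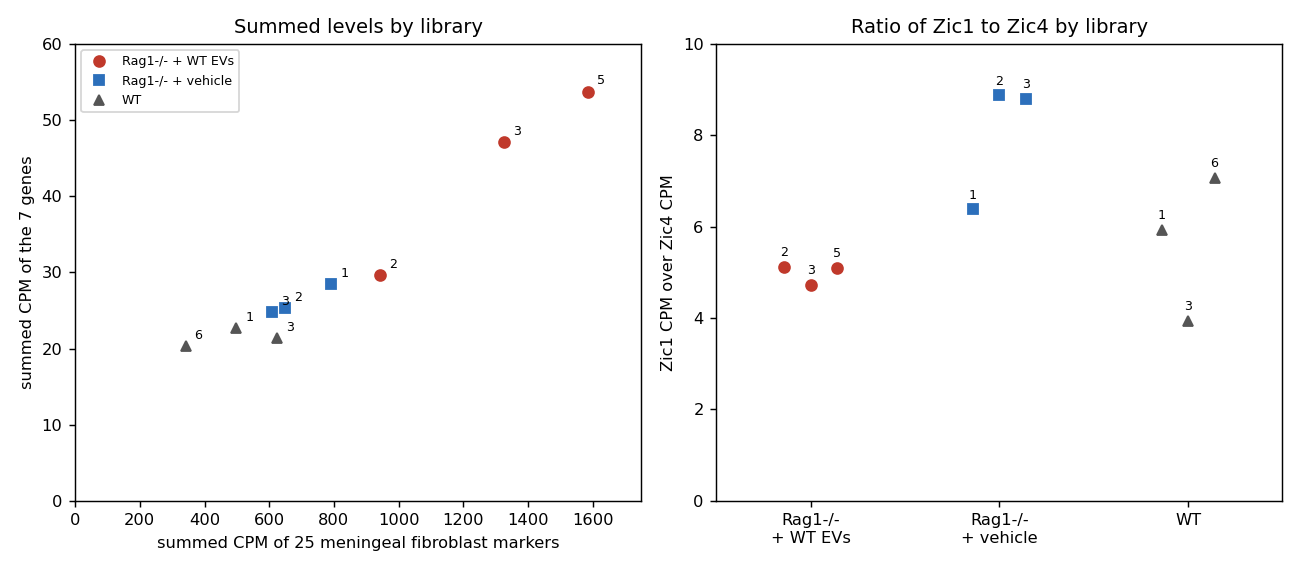
Left, summed CPM of the 7 genes (y axis) against the summed CPM of 25 meningeal fibroblast markers (x axis) in the 9 libraries, both linear and from 0; right, the ratio of Zic1 to Zic4 CPM by library for Rag1-/- + WT EVs, Rag1-/- + vehicle and WT. Numbers give the replicate. EV replicates 3 and 5 lie at the top right of the left panel with 47.1 and 53.8 CPM. EV replicate 2 (29.6) lies next to vehicle replicate 1 (28.5). In the right panel all EV ratios are below all vehicle ratios and within the range of the WT ratios.

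Other cell types that express some of the 7 genes were followed by their own markers. Mural cell markers summed to 214 to 286 CPM in EV, 188 to 210 in vehicle and 214 to 329 in WT libraries. Of these sums, Rgs5 alone averaged 113 CPM over the 9 libraries. For EV against vehicle 12 of 12 tested mural markers were positive (median log2 fold change 0.31) and 0 passed. An unadjusted p under 0.05 was found for 2 of the 12, beside 4143 of all 17948 tested genes. Endothelial markers summed to 286 to 366, 265 to 296 and 203 to 407 CPM in EV, vehicle and WT libraries. Choroid plexus and ependymal markers summed to 9.69 to 12.02 CPM in EV, 6.05 to 9.47 in vehicle and 7.26 to 8.49 in WT libraries, with Tmem212 at 0. For the neuronal sources of Zic genes, septal markers summed to 15.3 to 17.4 CPM in EV, 16.5 to 19.2 in vehicle and 16.5 to 17.3 in WT libraries. Cerebellar granule cell markers summed to 94.3 to 112, 112 to 125 and 93.9 to 126 CPM, and those of the olfactory bulb and neuroblasts to 111 to 142, 116 to 172 and 84.9 to 116 CPM, in EV, vehicle and WT libraries. Most of the cerebellar sum was Etv1 (mean 85.8 CPM over the 9 libraries), while Gabra6 and Barhl1 failed the filter with 56 and 21 reads in total. The olfactory sum was mainly Reln (74.3), Dcx (24.4) and Dlx1 (18.0), while Tbx21 and Eomes failed the filter with 29 and 28 reads. These 2 sums thus rest on few genes and cannot show the amount of tissue from those regions. Striatal markers summed to 176 to 245 CPM in EV, 195 to 207 in vehicle and 139 to 180 in WT libraries. None of these 4 neuronal lists was higher in all EV than in all vehicle libraries. The mural list (214 against 210 CPM in the nearest libraries) and the choroid plexus list (9.69 against 9.47) were, by narrow margins. In these lists 0 of 12 and 0 of 8 tested genes passed for EV against vehicle. Of all tested genes, 20.1% were higher in all EV than in all vehicle libraries. Astrocyte markers (10447 to 10763 CPM in EV, 7459 to 8502 in vehicle and 11053 to 12973 in WT libraries) and microglial markers (345 to 371, 260 to 289 and 237 to 363 CPM) were also higher in all EV than in all vehicle libraries, as were the markers of cortical excitatory neurons and of oligodendrocytes. For EV against vehicle 10 of 10 astrocyte markers were positive and 3 passed, and 10 of 10 microglial markers were positive and 2 passed. Of all tested genes, 3.42% passed. Positive values were found for 11 of 12 endothelial, 9 of 10 oligodendrocyte, 4 of 12 cortical excitatory and 3 of 10 interneuron markers. A rise of most or all markers was thus not particular to meningeal fibroblasts. The part of any of these lists in the levels of the 7 genes was not tested.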

How the data were processed

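RNA from dissected PFC tissue was made into directional libraries, sequenced, and aligned to GRCm38 with STAR (2.7.5c) after bcl2fastq (2.18.0.12). The values used were raw gene counts, which the authors produced with HTSeq (0.11.1 per the labels) over exons, with strand ignored, and deposited in 1 table of 56246 identifiers. Symbols, coordinates and exonic lengths came from GENCODE M21 (the authors counted on a later release), and 55230 identifiers (98.19%) matched. Reads outside exons (6.54 to 30.1% of gene, outside-exon and ambiguous reads) stayed out of library sizes and tests. The 7 genes, the other gene lists and the tests were chosen with earlier results of these data known.

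The main model was a single edgeR fit (4.0.16, in R 4.3.3) of the 9 libraries. Genes were kept by filterByExpr at a minimum count of 10 and a minimum total of 15, libraries were scaled by TMM, and group contrasts were tested by quasi-likelihood, 2-sided, with Benjamini-Hochberg adjustment over 17948 genes and a threshold of 0.05. The fit was tested on simulated counts. Members of the list were all named. Of the other transcription factors, up to 4 per comparison with the smallest p were named, of the fibroblast markers the 4 with the highest mean level, and, by Pearson's r, the 3 genes most like each member and 8 most like their mean. Of the genes so named, 1 is not reported here. Alternatives were DESeq2 (1.42.0), edgeR on the 6 libraries compared, DESeq2's size factors, upper-quartile factors, no filter, a minimum of 1 CPM in 3 libraries, replicate number as a block (replicate block), the share of reads outside exons as covariate, and each library left out in turn.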

Additional observations from a re-analysis of the deposited data

How the results depend on the processing

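The number of the 7 genes past the threshold changed with the settings, and the cause was not tested. For vehicle against WT (1 gene) it was 0 with edgeR on the 6 libraries compared and with the outside-exon covariate, and 0 to 2 with a library left out. For EV against vehicle (1 gene) it was 2 with DESeq2 (of 4, since DESeq2 gave no adjusted p for Osr1, Foxc2 and Foxd1, whose unadjusted p were 0.00179, 0.0798 and 0.00332), 5 on the 6 libraries, 0 with DESeq2's size factors, 3 without a filter, 2 with the 1 CPM filter, 3 with the covariate and 0 to 5 with a library left out. For EV against WT (1 gene) it was 3 with DESeq2, 0 on the 6 libraries, 5 without a filter and 0 to 4 with a library left out. Of the other transcription factors, for vehicle against WT (0) the count was 1 with DESeq2, without a filter and with the 1 CPM filter, and 0 to 1 with a library left out. For EV against vehicle (1) it was 6 with DESeq2 (of 18 with an adjusted p), 8 on the 6 libraries, 0 with DESeq2's size factors, 2 with upper-quartile factors, 6 without a filter, 3 with the 1 CPM filter, 7 with the covariate and 0 to 7 with a library left out. For EV against WT (0) it was 2 with DESeq2, 4 without a filter and 0 to 3 with a library left out. Over all genes, 2871, 613 and 8 were called for vehicle against WT, EV against vehicle and EV against WT, and 4785, 1991 and 340 with DESeq2, 0, 3289 and 0 on the 6 libraries, 5089, 1102 and 668 without a filter, 109, 1827 and 28 with the covariate, and 0 to 6602, 0 to 2985 and 0 to 1537 with a library left out. The 1 CPM filter gave 1149 for EV against vehicle and 20 for EV against WT. DESeq2's size factors gave 266 higher of 512 called for EV against vehicle, where TMM gave 390 of 613. With a library left out, the median log2 fold change of the 7 genes was 0.49 to 0.99 for EV against vehicle (0.75 with all), 0.85 to 1.31 for EV against WT (1.03) and 0.14 to 0.38 for vehicle against WT (0.25). The 7 genes' lowest counts, 22 to 28 reads of Osr1 in WT libraries, limit the precision of that gene.

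Replicate numbers shared between groups were not shown to pair the libraries: the correlations of their deviations were 0.0795 (EV and vehicle 2), -0.153 (EV and vehicle 3), 0.0870 (EV and WT 3), 0.160 (vehicle and WT 1) and 0.0172 (vehicle and WT 3). With the number as a replicate block, 0 of the 7 genes and 1 other factor (Foxp2, named for this count alone) passed for vehicle against WT, and 1 and 1 for EV against vehicle, and 1124 and 330 of all genes. Foxc2 had a log2 fold change of 0.33 for EV against vehicle in that fit. EV and WT share 1 number, so no block was fitted for that comparison.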
